A study of Homo sapiens with 3 samples.

Results

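miR-21 was measured through the probes for both arms of its hairpin, hsa-miR-21-5p and hsa-miR-21-3p, which are 2 of the 2019 human microRNA probes on the array and were taken by name. The arrays carried RNA of MCF12A, a non-tumorigenic epithelial cell line of the human breast, grown in a monolayer with horse serum, epidermal growth factor, hydrocortisone, insulin and cholera toxin. The groups were cells kept for 4 weeks with acetaldehyde, cells kept for 4 weeks with ethanol, and unexposed control cells, with 1 array each. Doses are labelled in conflicting units, as 1 mM acetaldehyde and 2.5 mM ethanol in the characteristics and as 1% and 2.5% in the treatment protocol. The protocol also mentions a soft-agar clone later exposed to ethanol, which the labels do not tie to these arrays. There was no replicate of any group, so no p-value is given, and the SDs below are over the 4 spots of a probe on 1 array, which measure printing and reading of spots and not variation between cultures. Both exposures were set against the same control array, and precision is limited by having 3 arrays.

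A microRNA hairpin is cut to a duplex of its arms, and one strand, the guide, is kept in an Argonaute protein, where its seed (bases 2 to 8) pairs with sites in messenger RNAs. For miR-21 the guide is mostly the 5p arm, which represses the tumour suppressor PDCD4 and is raised in many carcinomas, breast carcinoma included. Transcription of the miR-21 gene is driven by STAT3 and AP-1. The 3p arm is the passenger strand in most tissues.

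The hairpin lies on chromosome 17 at chr17:59841266-59841337 (GRCh38.p14, plus strand), inside the span of VMP1 (chr17:59707654-59842255), in the RefSeq tables used here. The hairpin is shown to place both arms, which are in capitals. Its sequence is credited to RefSeq, and the arms are the array's target sequences.
MIR21 hairpin: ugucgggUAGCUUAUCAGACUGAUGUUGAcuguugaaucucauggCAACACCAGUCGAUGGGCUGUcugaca
The 5p arm takes bases 8 to 29 of the 72-base hairpin and the 3p arm bases 46 to 66, with 16 bases between them. In the minimum free energy fold computed with RNAfold, 19 base pairs joined the arms. The mature sequences follow with the seed in capitals, each arm beside the microRNA on the array that shares its seed, because these would have the same seed matches.
miR-21-5p: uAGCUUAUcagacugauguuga
miR-590-5p: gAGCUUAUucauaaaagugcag
miR-21-3p: cAACACCAgucgaugggcugu
miR-3591-3p: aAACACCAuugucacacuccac
The 5p arm occupies chr17:59841273-59841294 and the 3p arm chr17:59841311-59841331. miR-590-5p lies at chr7:74191213-74191234 on the plus strand and miR-3591-3p at chr18:58451087-58451108 on the minus strand. The GC content of the target was 36.4% for miR-21-5p and 57.1% for miR-21-3p. No other target on the array came closer to miR-21-5p than miR-4639-5p, with 15 of 22 bases matching in an ungapped alignment. That probe was not detected on any of the 3 arrays. Detection required a mean over the spots above the level given by the empty spots (their median plus 3 SDs), and at least 50% of the spots above it as well.

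The 5p arm was among the brightest probes of the cells in every condition. Its raw spot intensities were 19899, 20269, 20375 and 20347 with acetaldehyde, 14960, 15528, 13976 and 13410 with ethanol, and 16291, 15518, 16211 and 14424 in the control. The acetaldehyde spots were all above those of both other arrays, while the ethanol and control spots overlapped. The means were 20222 ± 220, 14469 ± 953 and 15611 ± 864 in the same order (SD, n = 4 spots). Pixel SDs within these 12 spots ran from 4.12% to 9.83% of the spot's intensity. No spot of the arm was dark, and the brightest microRNA spots of the acetaldehyde, ethanol and control arrays stood higher, at 28023, 20307 and 23458.

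**Figure D1:**
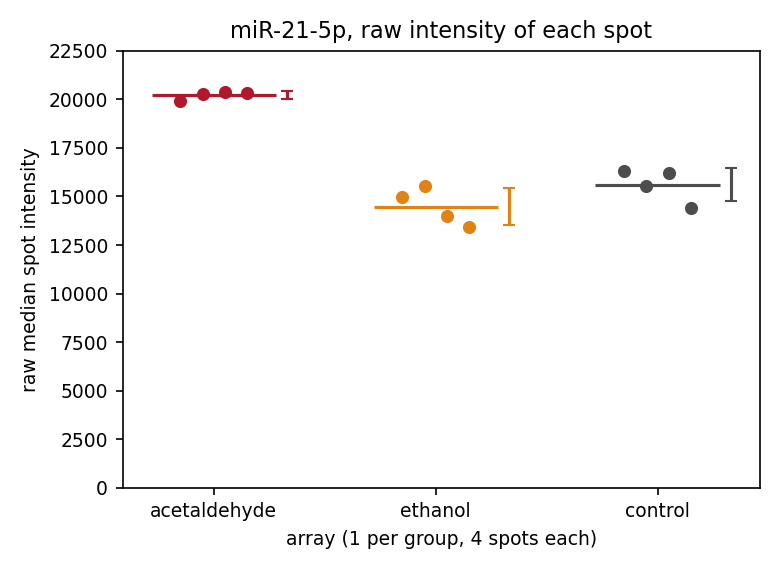
Raw median intensity of each of the 4 spots of miR-21-5p (points) on the acetaldehyde, ethanol and control arrays, with the mean (line) and SD over the spots (bar). The acetaldehyde spots lie between 19899 and 20375, above the ethanol spots (13410 to 15528) and the control spots (14424 to 16291), which overlap.

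Before any normalization between arrays, miR-21-5p was 1.30-fold brighter with acetaldehyde than in the control (log2 difference 0.38 ± 0.09, SD over the 4 spot positions) and higher at 4 of 4 positions. On the ethanol array it differed from control by -0.11 ± 0.09 and was lower at 3 of 4 positions. Acetaldehyde minus ethanol gave 0.49 ± 0.10, higher at 4 of 4 positions. Among all microRNAs detected on both arrays, 37.6% were higher at all 4 positions with acetaldehyde than in the control, and 50.7% than with ethanol. In RNA from whole cultures, a change in the cells that carry miR-21 and a change in miR-21 per cell cannot be told apart. None of these differences reached 2-fold, a size that 3.23%, 3.17% and 7.49% of the detected microRNAs reached without normalization in the same order of comparisons. The gap between the acetaldehyde and control spots was not particular to this arm either. Of the 774 microRNAs detected on both arrays, 188 (24.3%) had all 4 acetaldehyde spots above all 4 control spots, and of the 347 detected on the acetaldehyde and ethanol arrays, 124 (35.7%) had all acetaldehyde spots above all ethanol spots.

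Where miR-21-5p stood among the other microRNAs depended on the processing. With acetaldehyde against control, the median over the 774 detected microRNAs was 0.07, and 198 of them had a higher difference than the 5p arm (337 with net intensity). With ethanol against control the median of 347 microRNAs was -0.33, so that miR-21-5p, at -0.11, lay 0.22 above it, and 97 microRNAs were higher (66 with net intensity). With acetaldehyde against ethanol the median was 0.18 and 94 of 347 were higher (165 with net intensity). With net intensity the arm thus lay near the middle in both comparisons of acetaldehyde, at percentiles of 56.3 against control and 52.2 against ethanol. Other settings placed it higher, at 88.4 and 80.7 with cyclic loess and at 68.7 and 73.5 in the authors' deposited table. For ethanol against control the order was the reverse. The percentile was 71.8 without normalization and 80.7 with net intensity, but 52.4 with cyclic loess and 47.8 in the deposited table. As a share of all net fluorescence of the microRNA probes, the arm held 2.33% with acetaldehyde, 2.03% with ethanol and 1.77% in the control. In the sum, probes under the median of the empty spots counted as 0. On the ethanol array that median was 148, and the probe of rank 1012 of 2019, at 118.6, lay under it. The summed net fluorescence was 865942, 703875 and 877255, and the net intensity of the arm 20157, 14321 and 15505. With ethanol the share was thus above control while the arm itself was dimmer. Net values also depend on the empty spots of each array. These are shares of light, not of molecules, since probes bind with different strength.

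Quantile normalization erased these differences. miR-21-5p had rank 2 of 2019 in brightness on all 3 arrays, below miR-205-5p, so the step gave it the same value of 16567 (log2 14.02) on each, and every difference became 0.00. The rank was 2 by mean, median and net intensity and in the deposited table. It rested on small margins: the log2 gap of the probe of rank 3 to miR-21-5p, unnormalized, was -0.02 with acetaldehyde (miR-23a-3p), -0.04 with ethanol (miR-3960) and -0.0029 in the control (miR-23b-3p). The probe of rank 1 was 0.44, 0.34 and 0.48 brighter in the same order of arrays. In the spots of block 2 alone the arm had rank 3 on the control array. A value of 0.00 from this step therefore states only that the rank was the same. For comparison, 2.84% of the 774 microRNAs were at least 2-fold different between acetaldehyde and control after this normalization, 1.15% of the 347 between ethanol and control, and 6.34% of the 347 between acetaldehyde and ethanol.

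Settings that do not fix values by rank kept miR-21-5p above control with acetaldehyde, with the spikes as the exception. The log2 difference was 0.69 when the arrays were scaled on the median of the microRNAs detected on all 3, 0.47 with cyclic loess, 0.55 with scaling on the 6 probes for 5S ribosomal RNA, and -0.21 with scaling on the 43 spike probes. The spikes were themselves brighter on the acetaldehyde array for 41 of 43 probes, by 0.60 in the median, and the 5S probes dimmer for 6 of 6, by a median of -0.16. Ethanol against control gave 0.31, 0.09, -0.01 and 0.02 in the same order of settings, so its sign changed with the scaling. Acetaldehyde against ethanol gave 0.37, 0.38, 0.56 and -0.22. In the authors' deposited table, whose normalization is not described in the labels or headers, miR-21-5p read 18984, 15789 and 15609 on the acetaldehyde, ethanol and control arrays. Those values differ from control by 0.28 with acetaldehyde and by 0.02 with ethanol.

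**Figure D2:**
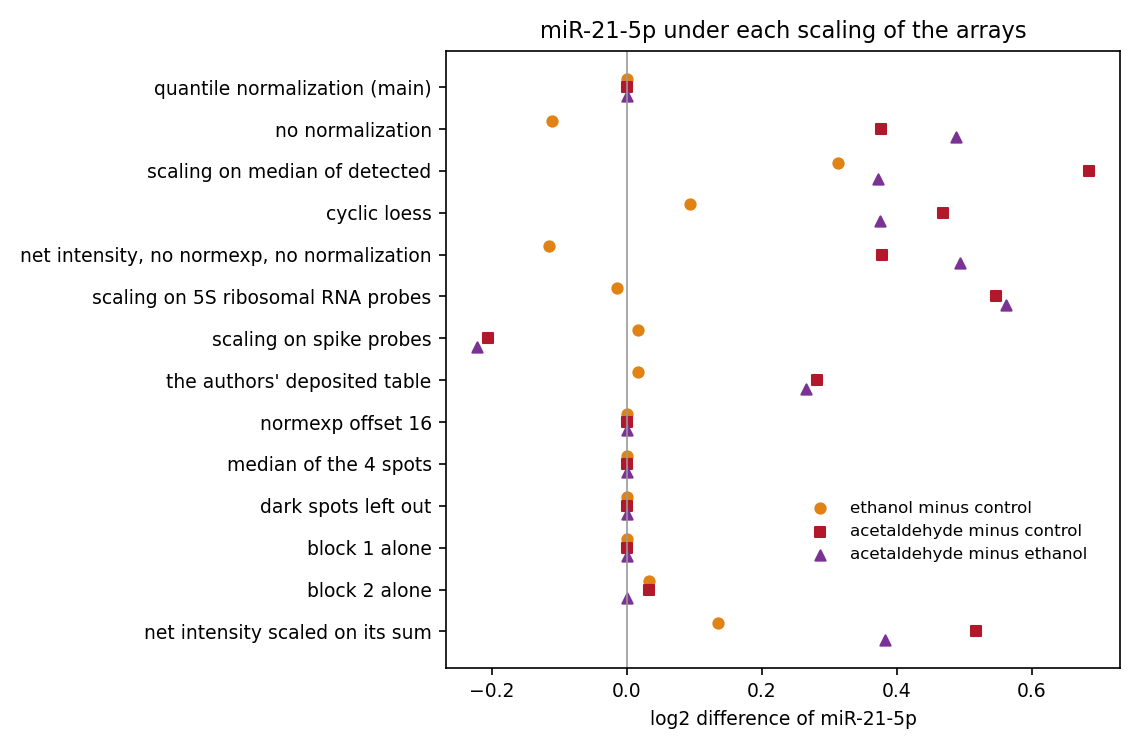
Log2 difference of miR-21-5p (horizontal axis) for ethanol minus control (circles), acetaldehyde minus control (squares) and acetaldehyde minus ethanol (triangles) under each setting (rows). The settings that end in quantile normalization lie at or near 0, scaling on the median of detected microRNAs gives the highest value for acetaldehyde minus control (0.69), and scaling on the spikes gives the lowest (-0.21).

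The other probes that held ranks 1 to 5 on any array divide by whether they moved with miR-21-5p. With acetaldehyde against control, unnormalized, miR-205-5p, a microRNA of basal and stratified epithelium, differed by 0.34 ± 0.12, miR-23a-3p by 0.41 ± 0.04, miR-23b-3p by 0.35 ± 0.09 and miR-29a-3p, which represses collagens and DNA methyltransferases, by 0.27 ± 0.07. They lie on both sides of the 0.38 ± 0.09 of miR-21-5p. let-7a-5p, which represses RAS and HMGA2, went the other way at -1.33 ± 0.10, as did miR-4668-5p at -0.69 ± 0.25, miR-6089 at -0.43 ± 0.08 and miR-3960 at -0.30 ± 0.03. With ethanol, miR-205-5p (-0.25 ± 0.05), miR-23a-3p (-0.22 ± 0.06) and miR-23b-3p (-0.33 ± 0.05) were lower than control by more than miR-21-5p was, and miR-29a-3p stood at -0.15 ± 0.15 and let-7a-5p at -0.14 ± 0.04. On the other side, miR-4668-5p was higher than control by 1.01 ± 0.13 and held rank 4 on the ethanol array, against 37 on the control array. miR-3960 (0.05 ± 0.08) and miR-6089 (0.05 ± 0.06) differed from control by less than their spot SDs. miR-23a-3p and miR-23b-3p held ranks 9 and 10 on the ethanol array, against 4 and 3 on the control array.

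**Figure D3:**
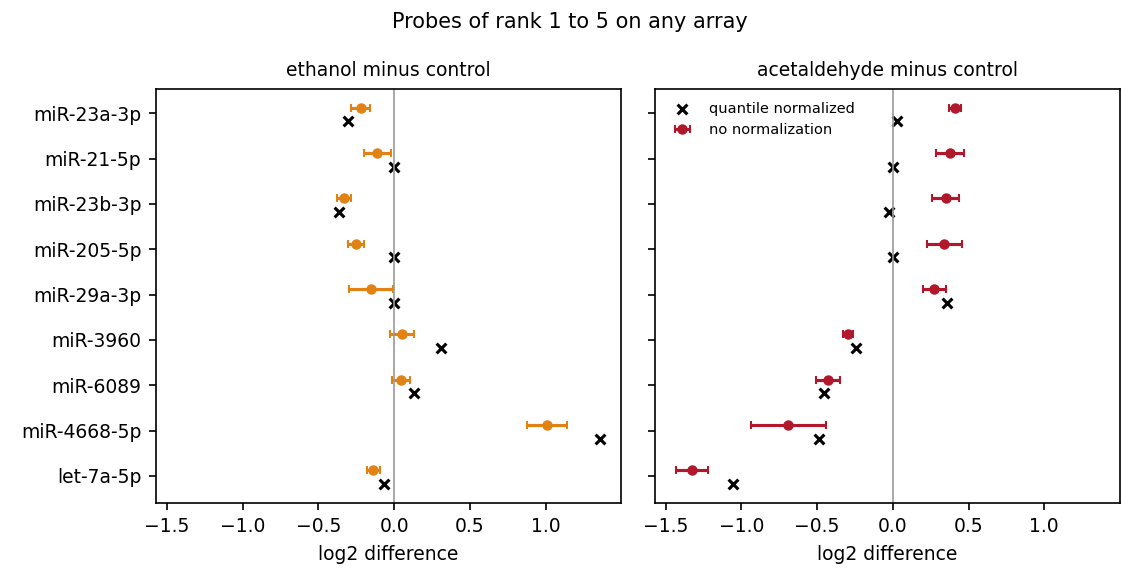
Log2 difference (horizontal axis, the same in both panels) of every probe with rank 1 to 5 on any array, for ethanol minus control and acetaldehyde minus control. Circles are unnormalized values with the SD over 4 spot positions, and crosses are quantile normalized values: miR-21-5p moves from 0.38 to 0.00 with acetaldehyde and from -0.11 to 0.00 with ethanol.

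Over the 3 arrays, the microRNAs whose unnormalized profile lay nearest to that of miR-21-5p, by Euclidean distance of centred log2 values among 346 others detected on all arrays, were miR-100-5p, miR-205-3p, miR-29b-3p, miR-151a-3p and miR-29a-3p, at distances of 0.06 to 0.07. miR-100-5p, which represses mTOR, differed from control by 0.32 with acetaldehyde and by -0.09 with ethanol. miR-29b-3p stood at 0.28 and -0.16. With 3 points a profile, this is a description of these arrays.

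The 3p arm was close to background. Its raw spots read 169.7, 135.4, 154.0 and 189.0 on the acetaldehyde array, 115.3, 106.6, 134.8 and 117.7 with ethanol, and 135.9, 124.0, 132.8 and 101.3 in the control. The detection level was 98.8, 243 and 146 on these arrays, so all 4 spots were above it with acetaldehyde and 0 of 4 with ethanol and in the control. On the ethanol array all 4 spots were below the median of the empty spots, which was 148 there, against 65.8 on the acetaldehyde and 106 on the control array. This was not particular to the arm, which had rank 1012 of 2019 in brightness on the ethanol array. Its unnormalized log2 value there was 6.674, against a median of 6.675 over all microRNA probes. The acetaldehyde spots were all above the ethanol spots, as for 25.9% of all 2019 probes, and overlapped the control spots, since the lowest of them, 135.4, was under the highest control spot, 135.9.

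**Figure D4:**
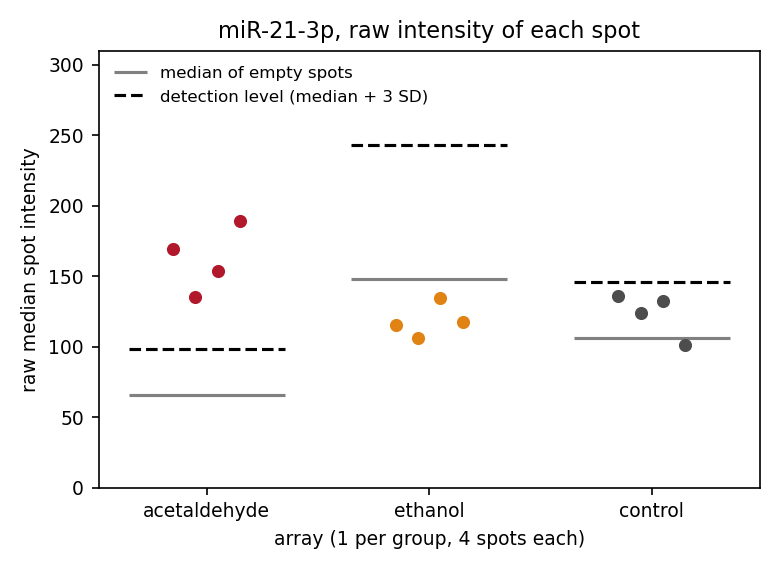
Raw median intensity of each of the 4 spots of miR-21-3p (points) on the acetaldehyde, ethanol and control arrays, with the median of the empty spots (grey line) and the detection level (dashed line) of each array. All acetaldehyde spots lie above their detection level of 98.8, and the ethanol and control spots lie below theirs, 243 and 146.

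miR-21-3p was thus detected on the acetaldehyde array only, where it was at least 1.04-fold higher than on the control array after quantile normalization. The bound sets its value there against the lowest signal detected on the control array. In log2 it was 0.06, less than the SD of the unnormalized difference over the 4 spot positions (0.37). The measured normalized intensities were 138 on the acetaldehyde array and 112 on the control array. Against the ethanol array no bound above 1 was obtained after quantile normalization, where the lowest detected signal of the ethanol array was brighter than the arm on the acetaldehyde array. With net intensity and no normalization the bound against ethanol was 1.01-fold. Between ethanol and control no fold is given, since the probe was not well above background on either. Against control the bound was 1.02-fold with cyclic loess, 1.32-fold without normalization and 1.64-fold when scaled on the detected median. It was 2.34-fold with net intensity and no normalization. Scaling on the spikes left no bound above 1.

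Gaining detection on the acetaldehyde array was common. Of the 1244 probes not detected on the control array, 656 (52.7%) were detected on the acetaldehyde array, whose empty spots were the darkest, and of the 1672 not detected on the ethanol array, 1083 (64.8%) were. In all, 70.8%, 17.2% and 38.4% of probes were detected on the acetaldehyde, ethanol and control arrays. With the level taken from the 40 empty spots nearest to each spot, the arm again passed with acetaldehyde and failed on both other arrays, with 1 of 4 control spots above that level.

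The arms of miR-21 were set beside those of the 542 hairpins with a probe for each arm. On the control array miR-21 was 1 of 87 hairpins (16.1%) with only the 5p arm detected, and 59 of those 87 (67.8%) had both arms detected on the acetaldehyde array, as miR-21 did. On the ethanol array 88 hairpins had only the 5p arm detected, and 73 of them (83.0%) had both on the acetaldehyde array. A difference between the changes of the arms could not be given for miR-21, because the 3p arm was not detected on the control or ethanol array. Among the 119 hairpins with both arms detected on the acetaldehyde and control arrays, the 3p change minus the 5p change had a median of 0.13 (quartiles -0.27 and 0.43, quantile normalized). The highest values were those of miR-1236, miR-3162 and miR-4750, from 1.08 to 1.21, and the lowest those of miR-30a, miR-30e and miR-4783, from -0.996 to -0.87. Without normalization the median was 0.18 and other hairpins held the extremes, miR-98, miR-3620 and miR-937 at 1.44 to 1.52 and miR-1915, miR-3663 and miR-4763 at -0.96 to -0.91.

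The microRNAs that share a seed with an arm differed from control in opposite directions with acetaldehyde. miR-590-5p, with the seed of miR-21-5p, had raw intensities of 393.6, 207.3 and 291.2 on the acetaldehyde, ethanol and control arrays and was detected on the acetaldehyde and control arrays only. Its difference from control with acetaldehyde was 0.48 after quantile normalization and 0.54 ± 0.05 without, in the same direction as the unnormalized miR-21-5p. miR-3591-3p, with the seed of miR-21-3p, read 2354, 2337 and 3966 and was detected on all 3 arrays. It was lower than control with acetaldehyde by -0.56 and with ethanol by -0.50 (quantile normalized), and its spot SDs were 0.15 and 0.06.

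Of 4 other microRNAs known to repress PDCD4, a target of miR-21-5p, 3 were detected on all arrays, and they differed in direction with acetaldehyde: miR-96-5p stood at 0.80 ± 0.22, miR-182-5p at 0.19 ± 0.17 and miR-183-5p at -0.82 ± 0.11, although all come from the same cluster. With ethanol the same 3 were below control, with a median of -0.34, while 49.0% of the 347 detected microRNAs were above 0. Without normalization their median was -0.50 and 19.3% of all were above 0. Of these, miR-183-5p stood at -0.06 ± 0.06 with ethanol after quantile normalization and at -0.50 without it. miR-499a-5p was not detected on any of the 3 arrays.

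MicroRNAs induced, like miR-21, by STAT3, AP-1 or NF-kB did not all differ from control in one direction. miR-155-5p, which acts in inflammatory signalling, was above 2-fold higher than control with ethanol (1.01 ± 0.13, and 0.70 without normalization), as 0.865% of the 347 detected microRNAs were, and stood at -0.35 ± 0.25 with acetaldehyde. The median of the list was 0.08 over 4 detected members with ethanol and 0.17 over 5 with acetaldehyde. With ethanol 3 of 4 were above 0, against 49.0% of all detected microRNAs. With acetaldehyde 4 of 5 were, against 43.3%, and miR-222-3p was the highest at 0.60 ± 0.04. The counts were 2 of 4 (19.3% of all) and 3 of 5 (55.2% of all) before normalization. Without normalization the ethanol median was below 0, and with scaling on the spikes the acetaldehyde median was -0.56. Of 9 microRNAs linked to ethanol exposure in other tissues, 8 had a probe of that name and 4 were detected on the ethanol and control arrays. Their median was 0.01 (-0.27 without normalization), with miR-155-5p the highest and miR-34a-5p, a p53 target, the lowest at -0.32 ± 0.80. Without dark spots the last value became 0.09 and the median of the list 0.16, with 4 of 4 above 0.

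miR-21 is also abundant in fibroblasts and blood cells, so markers of other cell types were read on the same arrays. The 6 epithelial and basal mammary markers were detected on all 3 arrays, with summed net intensities of 55225, 34823 and 45202 on the acetaldehyde, ethanol and control arrays. miR-205-5p alone held 27358, 18125 and 21601 of these. The markers did not all differ from control in one direction with acetaldehyde. miR-203a (10189 against 5764), miR-31-5p (4333 against 2420) and miR-141-3p (2568 against 1732) were brighter. miR-200c-3p (7311 against 8981) and miR-200b-3p (3466 against 4704) were dimmer. Of 5 mesenchymal and fibroblast markers, 5, 2 and 2 were detected, and their net sums were 640, 232 and 502. Of these, miR-143-3p, miR-145-5p and miR-199a-5p had raw intensities of 107.2, 111.1 and 139.2 on the acetaldehyde array, not far from the detection level of 98.8, and were not detected on the other arrays. miR-214-3p (296.4, 252.9 and 367.0) and miR-10b-5p (315.6, 275.5 and 337.3) were detected on all 3 arrays. After quantile normalization they differed from control by -0.31 and -0.08 with acetaldehyde, and by -0.18 and 0.06 with ethanol. Of 4 blood markers, miR-223-3p was detected on the acetaldehyde array, and miR-451a, miR-142-3p and miR-144-3p on none. The liver marker miR-122-5p was not detected on any array. Of 3 muscle markers, 2, 1 and 1 were detected in the same order of arrays. The part of these markers in the values of miR-21 was not tested.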

How the data were processed

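The labels' protocols state that 2 µg of total RNA was tailed with poly(A), tagged and stained with Cy5. The deposited per-array files hold the median intensity of each spot as the authors exported it, with no background subtraction, as the file headers and the readings of the 1368 empty spots show. Each microRNA had 4 spots, 2 in each of 2 blocks. The authors' deposited series table holds 1 normalized linear intensity per probe. No label or header describes its method.

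Background was corrected with normexp (offset 50, all spots) in limma 3.58.1 under R 4.3.3. The 4 log2 spot values were averaged and the arrays quantile normalized over 2019 probes. Python 3.11.15, pandas 2.3.3, NumPy 2.4.6 and ViennaRNA 2.7.2 served for the rest. The normexp, averaging and quantile steps were tested on simulated arrays with known changes. The simulated arrays shared the control array's level of empty spots, so differences in that level between arrays were not covered. SDs of differences are over unnormalized spot positions. With 1 array per group no test was possible, and sizes were read against 2-fold. Where a microRNA was at least N-fold higher, the dim array's value is the higher of its own signal and the lowest detected signal. A dark spot had a net signal under 50% of its probe's median, where that median was over 300.

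Named microRNAs are the arms, those sharing a seed, ranks 1 to 5 on each array, the 5 nearest profiles of miR-21-5p, part of the list members and the 3 highest and lowest arm differences. Profiles like miR-21-3p and its rank neighbours are not given, since it was below detection on 2 arrays. The members and lists were chosen with earlier results of these data known. One list of microRNAs is not reported here.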

Additional observations from a re-analysis of the deposited data

How the results depend on the processing

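The value of miR-21-5p moved with the scaling. Its difference of 0.00 in all 3 comparisons under quantile normalization moved by less than the spot SD with a normexp offset of 16, with the median of the spots, without dark spots and in either block alone, settings that end in the same step, which sets the value by rank, so they do not show how these choices act under another scaling. Ethanol minus control moved to -0.11 without normalization and with net intensity, 0.31 when scaled on the detected microRNAs' median, 0.09 with cyclic loess and 0.13 with net intensity scaled on its sum, an alternative chosen after seeing the data. It stayed within the spot SD with 5S, spike and deposited values. Acetaldehyde minus control moved to 0.38 without normalization and with net intensity, 0.69 on the median, 0.47 with cyclic loess, 0.55 on 5S probes, -0.21 on spikes, 0.28 in the deposited table and 0.52 on the sum. Acetaldehyde minus ethanol moved to 0.49, 0.49, 0.37, 0.38, 0.56, -0.22, 0.27 and 0.38 in that order: none, net, median, loess, 5S, spikes, deposited, sum. The bound for miR-21-3p, acetaldehyde over control, of 0.06 (log2) moved to 0.71 on the median, 1.23 with net intensity, 0.58 on 5S probes and 0.99 in the deposited table, and could not be given on the spikes. The cause of these moves was not tested.

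Counts of microRNAs at least 2-fold different moved by over 1.5 times in these cases. Those higher with acetaldehyde than control were 8, against 63 with median scaling and 147 with net intensity. Those higher with acetaldehyde than ethanol were 7, against 14 without normalization, 60 with net intensity and 12 without the detection filter. Those higher with ethanol than control were 3, against 5 with median scaling or cyclic loess and 1 with net intensity. Those lower with ethanol than control were 1, against 9 without normalization, 0 with median scaling or cyclic loess, 58 with net intensity and 2 without the filter. No paired analysis was possible because each group has 1 array. A difference of arms was not run for miR-21, whose 3p arm was not well above background on 2 arrays.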
